A study of Sus scrofa with 40 samples.

Results

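The mitochondrial ribosomal protein genes were taken as the rows of the pig gene table whose symbol begins with MRPL or MRPS and a digit, which gave 67 of 21280 genes: 40 named for the large subunit (MRPL) and 27 for the small one (MRPS). RNA sequencing covered 10 libraries of each of 4 muscles sold as meat from Chalu black pigs, the longissimus dorsi muscle (LDM), hamstring muscle (HM), trapezius muscle (TM) and pork belly (PB). All pigs were males of a single sire, reared in the same environment on the same feed and fasted before routine slaughter, and each cut came from the left side, with fascia avoided. The labels give no age and no treatment that differs between cuts. They number the libraries within each cut without saying which came from the same pig, so the p-values measure the spread between these libraries. The title and description of the library PB1 say belly, but longissimus stands in the 2 other labels of its origin. PB1 was kept with PB and left out in an alternative.

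The mitochondrial ribosome translates the messenger RNAs of the mitochondrial genome, all of which encode subunits of the respiratory chain complexes and of ATP synthase. Its ribosomal RNAs come from mitochondrial DNA, whereas every one of its proteins is encoded in the nucleus, made on cytosolic ribosomes and imported. Some of these proteins descend from bacterial ribosomal proteins and others occur in mitochondria only. In skeletal muscle, slow oxidative fibres hold more mitochondria than fast glycolytic fibres. Some names do not match the present view of the protein: MRPS30 and MRPS18A sit in the large subunit, and MRPS36 has since been assigned to the 2-oxoglutarate dehydrogenase complex of the citric acid cycle.

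Library totals ran from 12305913 to 17735722 counts, of which the 67 genes together took between 0.0821% and 0.170%. As a check of the labelled tissue, all 18 slow- and fast-fibre markers were detected in every library, with a mean of 9078 CPM (counts scaled to a common library total, here with TMM factors) for MYH7, the slow myosin heavy chain, in LDM. In bulk tissue, fewer cells of a type and less RNA per cell cannot be told apart.

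Per unit of gene length, levels among the 67 genes were spread widely. As FPKM (counts scaled by gene length and by library total) averaged over all 40 libraries, 24 genes were at 10 or more, 34 between 1 and 10, and 9 below 1. MRPL41 had the highest mean, 44.3 FPKM, followed by MRPS26 at 43.7, MRPL12 at 33.5, MRPL38 at 32.5 and MRPL51 at 29.5 FPKM. MRPL41 and MRPL51 are mitochondria-specific proteins of the large subunit, MRPL38 lies in its central protuberance, and MRPL12 forms the stalk that recruits translation factors. Over the 61 genes that entered the tests the median was 9.10 FPKM, and the lowest was MRPS18C at 0.232 FPKM.

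**Figure D1:**
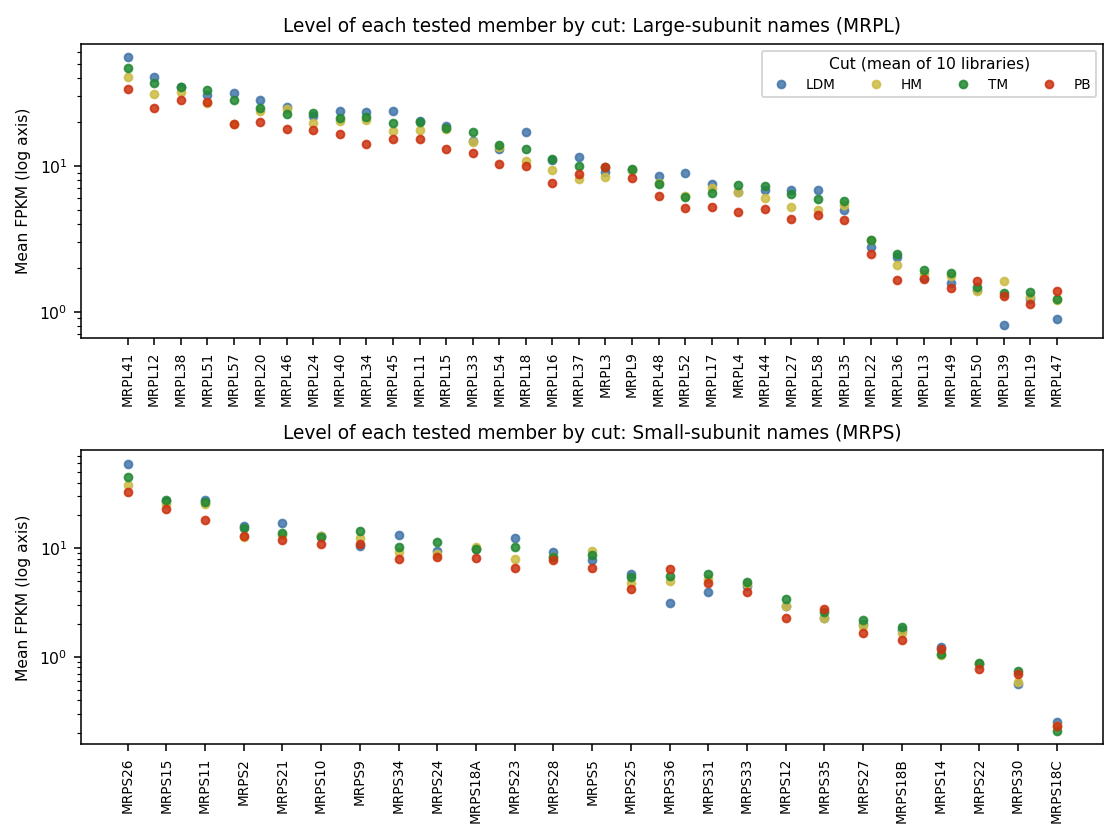
Mean FPKM of 10 libraries on a log axis for each of the 61 tested genes, large-subunit names above and small-subunit names below, ordered by overall mean; colours are the 4 cuts. Levels run from 44.3 FPKM for MRPL41 to 0.232 FPKM for MRPS18C, a wider spread between genes than between cuts of any 1 gene.

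The other 6 genes were removed by the filter on low counts, and every one of them overlapped another gene span. MRPL55 had 0 counts in all 40 libraries, MRPS7 had 1, MRPL10 had 12, MRPS16 had 30, MRPL28 had 176 and MRPL43 had 186 counts in total. MRPL10 anchors the MRPL12 stalk, and MRPS7 and MRPS16 descend from bacterial small-subunit proteins. Overlap with another span on the same strand was present for 4 of the 6 and for 11 of all 67 genes, and on either strand for 6 and 32. The sources used here do not give how reads from overlapping genes were counted, so low counts of these 6 do not show low expression. DAP3, a small-subunit protein with a name of its own, was also near 0, with 96 counts in total and an overlap on its own strand.

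Adjusted p-values here are from edgeR's quasi-likelihood test, corrected by the Benjamini-Hochberg method across the 11713 genes that were tested, and 0.05 was the threshold. Among the 4 cuts, 30 of the 61 tested genes differed, against 57.2% of all genes tested (members 49.2%), so a difference somewhere among the cuts was not more frequent here than over the whole table. The changes were small: a single gene in a single pair, MRPS36 in PB against LDM, passed the threshold with a change of at least 2-fold. The 3 pairs with LDM share its 10 libraries and are given side by side, not as independent results.

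Belly against longissimus gave the most calls. In PB, 26 of the 61 tested genes were lower than in LDM and 5 were higher, while 30 did not pass; over all genes tested, 41.7% passed, 21.2% lower and 20.5% higher. The median log2 change was -0.21, beside -0.02 for all genes tested, and 49 of the 61 had a log2 change below 0. Among names of the large subunit, 21 of 36 fell and 2 rose (median -0.34). Among names of the small subunit, 5 of 25 fell and 3 rose (median -0.13). Those 3 were MRPS30, MRPS35 and MRPS36. By the present view given above, MRPS30 sits in the large subunit and MRPS36 in another complex, so these counts follow names only. When scaling left out the mitochondrially encoded genes, the calls were 8 higher and 21 lower. Without PB1 they were 5 higher and 24 lower, and 28 genes differed among the cuts.

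In TM, 15 genes were lower than in LDM and 3 were higher, where 24.7% of all genes passed (13.4% lower, 11.3% higher). The median was -0.11, beside 0.04 for all genes. Under upper-quartile scaling these calls became 5 higher and 8 lower. In HM, 18 were lower and 2 were higher, where 32.5% of all genes passed (16% lower, 16.5% higher), and the median was -0.15, beside 0.08 for all genes. Without HM6, HM9, TM3 and TM7 the calls were 4 higher and 12 lower in TM and 2 higher and 15 lower in HM.

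**Figure D2:**
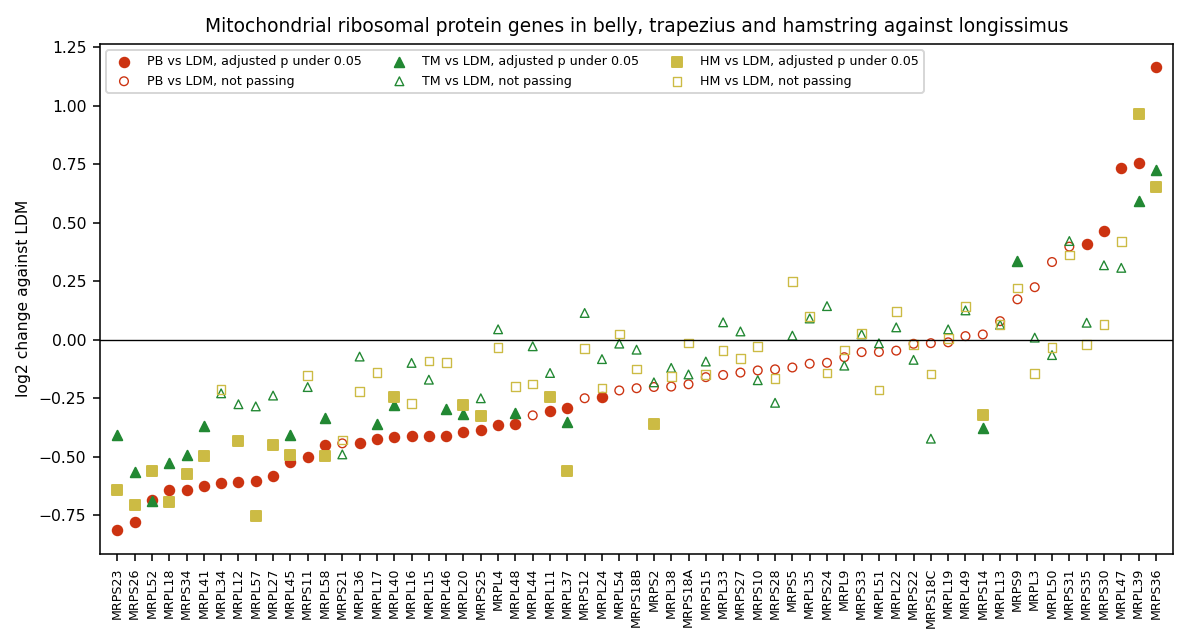
Log2 change against LDM (y axis) of each of the 61 tested genes, ordered by the change in PB; circles are PB, triangles TM and squares HM, each a contrast of 10 with 10 libraries, and filled symbols have an adjusted p under 0.05. Most symbols lie below 0, and MRPS36, MRPL39 and MRPL47 are the highest in PB.

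Muscle fibre markers moved in the same pairs. In PB, TM and HM, 9 of 9 slow-fibre markers were higher than in LDM and 9 of 9 fast-fibre markers lower. The summed slow-fibre markers ran from 7045 to 25129 CPM in LDM, 13850 to 82096 in HM, 8939 to 122980 in TM and 25996 to 66360 in PB. For the fast-fibre sum the ranges were 62267 to 110940, 18675 to 76680, 11909 to 60947 and 24880 to 74902 CPM in the same order. The lowest slow-fibre sums of HM and TM, in HM9 and TM7, lay within the LDM range, and the same libraries had the highest fast-fibre sums of their cuts. Endothelial markers were higher for 1 of 5 in PB, 5 of 5 in TM and 4 of 5 in HM, and their sum ran from 203 to 311 CPM in LDM, 248 to 734 in HM, 210.3 to 582 in TM and 186 to 539 in PB. Leukocyte markers were higher for 3 of the 4 tested in PB, 1 in TM and 0 in HM, with sums of 13.2 to 60.5 CPM in LDM, 20.1 to 65.4 in HM, 15.995 to 73.4 in TM and 24.1 to 176 in PB, where the highest was PB8. Smooth muscle and pericyte markers were higher for 1 of 5 in PB, 2 in TM and 4 in HM, with sums of 6482 to 13942, 9102 to 15806, 5476 to 13846 and 7806 to 12642 CPM in LDM, PB, TM and HM. Nearly all of each sum was DES, with means of 9278, 11210, 10870 and 9714 CPM in the same order. These sums therefore do not show the other markers, such as MYH11 with means of 103, 82.1, 158 and 324 CPM. Schwann cell markers were lower for 2 of 5 in PB, 1 in TM and 1 in HM, with sums of 122 to 265 CPM in LDM, 71.4 to 146 in PB, 86.2 to 320 in TM and 72.8 to 266 in HM. Adipocyte markers were higher for 1 of the 5 tested in each of the 3 cuts, and fibroblast markers for 1 of 6 in PB and HM and 0 in TM. Of all genes tested, 20.5% were higher than in LDM in PB, 11.3% in TM and 16.5% in HM, and 21.2%, 13.4% and 16% were lower. The part of these marker changes in the ribosomal protein values was not tested.

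The small subunit held the clearest single gene. MRPS26, a mitochondria-specific small-subunit protein (ENSSSCG00000007165, build Sscrofa11.1, chromosome 17, 32629282 to 32631430, minus strand), had CPM values in LDM of 52.8 (lowest), 61.2 (median) and 82.2 (highest). The lowest, median and highest were 34.7, 37.5 and 48.3 CPM in HM, 34.1, 41.1 and 55.7 in TM, and 28.8, 38.6 and 42.7 in PB. Every PB and every HM library lay below all LDM libraries, as did 9 of 10 TM libraries. MRPS26 fell by 0.78 on the log2 scale in PB (SE 0.095, adjusted p = 6.26e-08), by 0.70 in HM (SE 0.095, adjusted p = 1.98e-06) and by 0.56 in TM (SE 0.095, adjusted p = 4.23e-05).

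MRPS23, another mitochondria-specific small-subunit protein (chromosome 12, 34016994 to 34132840), ran from 12.4 through a median of 18.4 to 24.9 CPM in LDM and from 7.27 through 10.5 to 13.0 CPM in PB. In TM it ran from 11.05 through 13.6 to 17.7 CPM and in HM from 8.07 through 11.998 to 16.9 CPM. Although the ranges overlapped, 7 PB libraries and 7 HM libraries lay below every LDM library, and only 3 TM libraries did. Its log2 changes against LDM were -0.81 in PB (SE 0.126, adjusted p = 3.47e-06), -0.64 in HM (SE 0.126, adjusted p = 0.000184) and -0.40 in TM (SE 0.125, adjusted p = 0.0152).

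MRPS34 stabilises the small subunit (chromosome 3, 40193232 to 40196868). It had lowest, median and highest values of 26.1, 35.8 and 39.0 CPM in LDM and 15.2, 22.9 and 27.8 CPM in PB. In HM these were 19.2, 21.2 and 29.8 CPM, and in TM 18.9, 24.5 and 29.9 CPM. In each of the 3 cuts, 8 of 10 libraries lay below all of LDM. Changes were -0.64 in PB (adjusted p = 3.69e-05), -0.57 in HM (adjusted p = 0.000274) and -0.49 in TM (adjusted p = 0.0017), each with an SE of 0.116. Its span overlaps another gene on the same strand, so its counts are uncertain.

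In the central protuberance, the part of the large subunit where mammalian mitoribosomes carry a structural transfer RNA, MRPL18 contacts that RNA. MRPL18 (chromosome 1, 7581763 to 7590032) ran from 22.6 through 32.9 to 37.7 CPM in LDM and from 16.1 through 20.6 to 25.8 CPM in PB. The ranges overlapped, with 9 PB, 9 HM and 5 TM libraries below every LDM library. Its log2 change was -0.64 in PB (SE 0.125, adjusted p = 8.9e-05), -0.69 in HM (SE 0.125, adjusted p = 7.18e-05) and -0.53 in TM (SE 0.124, adjusted p = 0.00173). In HM it ran from 13.2 through 19.6 to 30.03 CPM, and the highest of these was the library HM9.

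The protuberance proteins MRPL40 and MRPL58 were lower than in LDM as well. MRPL58, a peptidyl-tRNA hydrolase built into the large subunit, ran from 25.5 through 28.7 to 37.0 CPM in LDM and from 20.4 through 21.7 to 25.7 CPM in PB, with 9 PB libraries below all of LDM. Its changes were -0.45 in PB (adjusted p = 0.000175), -0.49 in HM (adjusted p = 0.000104) and -0.33 in TM (adjusted p = 0.00648), each with an SE of 0.092. MRPL40 changed by -0.42 in PB (SE 0.097, adjusted p = 0.000729). In TM and HM it also passed (-0.28 and -0.24, adjusted p = 0.0304 and 0.0485), and those calls were lost under 5 and 7 of the 14 alternatives. MRPL38, in the same protuberance, did not pass in any pair and ran from 39.9 to 67.5 CPM in LDM and from 37.9 to 67.1 in PB.

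MRPL41 (an unplaced scaffold, 440487 to 440894) is a short gene of 408 bases. Its lowest, median and highest values were 18.4, 21.96 and 28.8 CPM in LDM, 13.2, 15.8 and 20.9 in HM, 14.6, 17.3 and 20.2 in TM, and 11.11, 15.7 and 20.3 in PB. LDM overlapped each other cut only at its lower edge: 9 PB, 8 HM and 6 TM libraries lay below all of its libraries. The log2 changes were -0.63 in PB (adjusted p = 7.85e-06), -0.50 in HM (adjusted p = 0.000319) and -0.37 in TM (adjusted p = 0.0068), each with an SE of 0.102.

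MRPL52, a mitochondria-specific protein of the large subunit, and MRPL45, which sits at the exit of the peptide tunnel facing the inner membrane, were lower in all of the pairs with LDM. MRPL52 ran from 5.81 through 8.75 to 10.6 CPM in LDM, from 3.56 through 5.48 to 8.49 in HM, from 2.86 through 5.26 to 6.28 in TM and from 4.06 through 5.08 to 6.48 in PB. Most PB and TM libraries, 8 in each, lay below every LDM library. Its changes were -0.68 in PB (adjusted p = 0.000155), -0.69 in TM (adjusted p = 0.000318) and -0.56 in HM (adjusted p = 0.00192). MRPL45 changed by -0.52 in PB (adjusted p = 0.000205), -0.41 in TM (adjusted p = 0.0052) and -0.49 in HM (adjusted p = 0.000678). In LDM MRPL45 had a median of 39.0 CPM, against 27.5 in PB.

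The stalk protein MRPL12 ran from 27.1 through 35.5 to 40.5 CPM in LDM and from 13.3 through 24.0 to 27.2 CPM in PB, where 9 libraries lay below all of LDM. It fell by 0.61 in PB (SE 0.125, adjusted p = 0.000182) and by 0.43 in HM (SE 0.124, adjusted p = 0.00713) on the log2 scale, and did not pass in TM (-0.28, adjusted p = 0.0997). The annotated span of MRPL12 covers 4 other genes on its own strand. MRPL57 was the lowest called gene of HM (-0.75, SE 0.249, adjusted p = 0.0186). Its values were wide in every cut, from 6.96 through 21.7 to 34.1 CPM in LDM and from 4.99 through 11.5 to 19.0 CPM in HM, so the ranges overlapped. MRPL57 in PB passed narrowly (-0.60, adjusted p = 0.0485), and 12 of the 14 alternatives lost that call.

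Of the genes that were higher outside LDM, MRPL39 had the smallest p-value. MRPL39, a mitochondria-specific large-subunit protein (chromosome 13, 189148714 to 189167880, minus strand), ran from 5.48 through a median of 6.43 to 8.19 CPM in LDM. It ran from 9.92 through 12.6 to 16.3 CPM in HM, from 7.95 through 9.70 to 12.3 in TM and from 7.02 through 11.4 to 15.1 in PB. All HM libraries were above all LDM libraries, and 9 of 10 were in TM and PB. The log2 change was 0.96 in HM (SE 0.117, adjusted p = 2.99e-07), 0.75 in PB (SE 0.117, adjusted p = 3.35e-06) and 0.59 in TM (SE 0.116, adjusted p = 0.000253).

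MRPS36 (chromosome 16, 47386434 to 47405911) ran from 2.10 through 5.63 to 12.9 CPM in LDM and from 9.74 through 15.4 to 21.8 CPM in PB. In TM it ran from 5.66 through 10.3 to 17.8 CPM and in HM from 9.03 through 10.04 to 12.7 CPM. LDM was wide and overlapped every other cut; 6 PB libraries and 3 TM libraries lay above all of LDM, and 0 HM libraries did. It rose by 1.17 in PB (SE 0.231, adjusted p = 0.000116), a 2.24-fold change. The changes in TM (0.73, adjusted p = 0.0176) and HM (0.65, adjusted p = 0.0263) passed too, and were lost under 2 and 1 of the 14 alternatives. Without the libraries numbered 8, the HM call did not pass.

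The other 3 genes called higher in PB were MRPL47, MRPS30 and MRPS35. MRPL47, near the tunnel exit, had medians of 2.74 CPM in LDM and 4.87 CPM in PB (0.73, SE 0.196, adjusted p = 0.00282), and 7 PB libraries lay above all LDM libraries. MRPS35 had medians of 6.71 and 8.22 CPM (0.41, SE 0.154, adjusted p = 0.0307) with 5 PB libraries above LDM. MRPS30, at 13320 bases the longest of the called genes, had medians of 7.16 and 10.7 CPM (0.46, SE 0.138, adjusted p = 0.00654), with 1 PB library above LDM. The MRPS30 call did not pass with the gene length correction, nor that of MRPS35 under limma-voom. In TM, the bacterial-type small-subunit protein MRPS9 was higher than in LDM (0.34, SE 0.097, adjusted p = 0.00957), also not with the length correction.

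**Figure D3:**
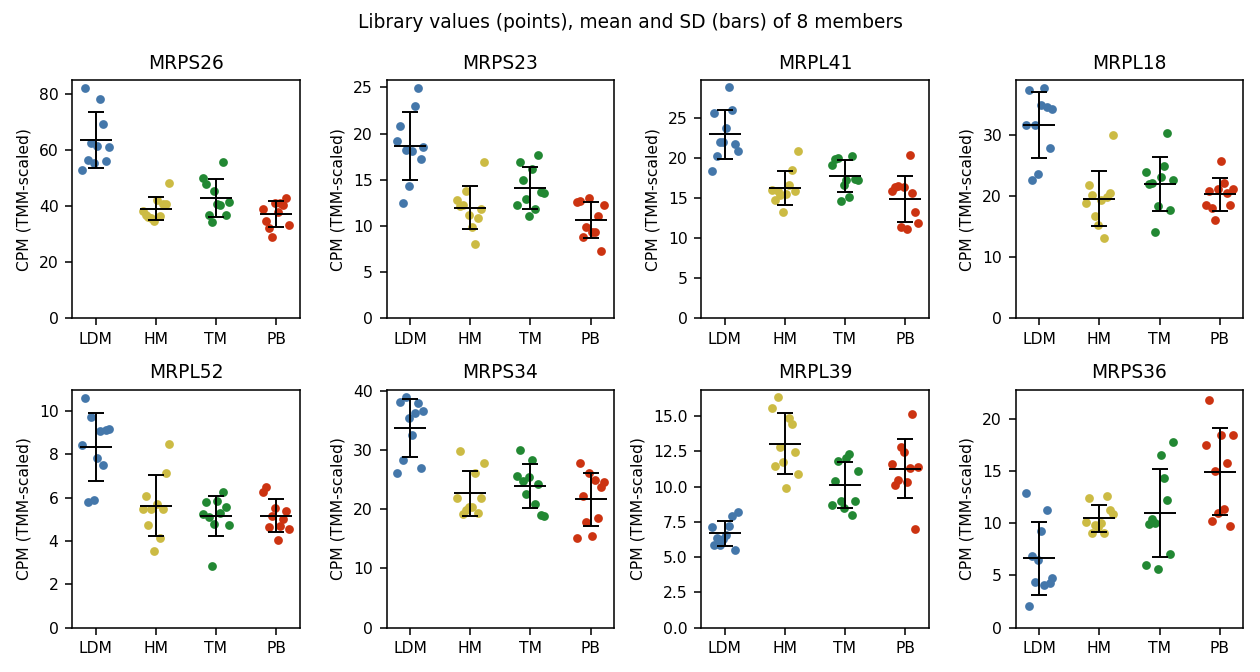
CPM (TMM-scaled) of every library in the 4 cuts for 8 genes, each panel with its own axis from 0; horizontal bars are the mean and SD of 10 libraries. In MRPS26 no PB or HM point reaches the lowest LDM point of 52.8 CPM, and in MRPL39 no HM point is as low as the highest LDM point of 8.19 CPM.

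Gene length went with the calls. In PB against LDM the 26 lower genes had a median length of 1572.5 bases, the 5 higher genes 3129 bases and the 30 that did not pass 2963.5 bases. After a correction for a smooth trend on gene length in each library, 24 of the 31 calls held, and the counts were 6 higher and 21 lower. The lower genes also had the higher FPKM, with a median of 14.8 against 1.27 for the 5 higher genes. It was 7.19 for the 30 that did not pass. FPKM are scaled by gene length, so this difference is not separate from that in length. The genome positions showed a single close pair among the 67: MRPS11 and MRPL46 lie head to head on chromosome 1, on opposite strands and 350 bases apart. MRPL46, a protuberance protein, changed by -0.41 in PB against LDM (adjusted p = 0.00188). MRPS11, a bacterial-type small-subunit protein named here after its values were seen, changed by -0.50 (adjusted p = 0.00342).

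Belly against hamstring separated few of these genes. In PB, 4 of 61 were higher and 4 were lower than in HM, where 27.6% of all genes tested passed (13.5% higher, 14.1% lower), a smaller share among members than over the table. The median was -0.07, beside -0.05 for all genes. Higher were MRPS30 (0.40, SE 0.137, adjusted p = 0.0268), MRPS35 (0.43, SE 0.155, adjusted p = 0.0335), MRPS14 (0.34, SE 0.123, adjusted p = 0.034) and MRPL3 (0.37, SE 0.110, adjusted p = 0.0108). MRPL3, a bacterial-type protein of the large subunit core, ran from 11.2 through 16.03 to 18.8 CPM in HM and from 15.6 through 19.5 to 23.9 CPM in PB, and 6 PB libraries lay above all of HM. The MRPS30 and MRPS14 calls of this pair did not pass with the length correction, and that of MRPS14 did not pass without PB1.

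Lower in PB than in HM were MRPL15 (-0.32, SE 0.098, adjusted p = 0.0132), MRPL4 (-0.33, SE 0.106, adjusted p = 0.0169), MRPL46 (-0.31, SE 0.105, adjusted p = 0.0235) and MRPS5 (-0.37, SE 0.121, adjusted p = 0.0204). MRPL4, a protein that lines the peptide tunnel, ran from 14.9 through 18.8 to 23.0 CPM in HM and from 12.2 through 15.5 to 17.6 CPM in PB, with 5 PB libraries below all of HM. MRPS5 ran from 27.9 through 35.0 to 53.0 CPM in HM and from 23.0 through 28.7 to 38.9 CPM in PB, with 5 libraries below. The balance moved with the scaling and with the libraries kept: the calls were 3 higher and 6 lower under upper-quartile scaling, 5 and 0 when scaling left out the mitochondrially encoded genes, 3 and 0 with the gene length correction, and 6 and 0 without the libraries numbered 8. None of the 4 lower calls passed under the last 3 of these settings. Without PB1 they were 3 and 4.

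Against trapezius, 1 gene was higher and 3 were lower in PB, where 23.1% of all genes passed (13.4% higher, 9.69% lower); the median was -0.11, beside -0.06 for all genes. MRPS14, a bacterial-type small-subunit protein, was the higher one. It ran from 5.22 through 7.16 to 9.18 CPM in TM and from 7.35 through 9.55 to 11.98 CPM in PB, and 7 PB libraries lay above all TM libraries (0.40, SE 0.123, adjusted p = 0.0162). MRPS14 was lower than LDM in TM (-0.38, adjusted p = 0.0215) and HM (-0.32, adjusted p = 0.0422) but not in PB (0.02, adjusted p = 0.901). The lower ones were MRPL4 (-0.41, SE 0.106, adjusted p = 0.00451), MRPS23 (-0.41, SE 0.126, adjusted p = 0.016) and MRPL12 (-0.33, SE 0.125, adjusted p = 0.0482). The MRPL12 call was lost under 9 of the 14 alternatives, that of MRPS23 without the libraries numbered 8 and with the length correction, and that of MRPS14 with the length correction. The calls of MRPS14 against LDM ended under upper-quartile scaling and without the libraries numbered 8. This pair had 8 calls (1 higher, 7 lower) under upper-quartile scaling and 2 without the libraries numbered 8 or with the length correction, and without PB1 the calls were again 1 higher and 3 lower.

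Between trapezius and hamstring, 0 of the 61 genes passed, where 0.768% of all genes did (0.41% higher, 0.359% lower). At an unadjusted p under 0.05 there were 2 genes, DESeq2 called 0 and limma-voom called 1, lower in TM. The median was 0.06, beside -0.02 for all genes. MRPL39 came nearest in these values: it ran from 7.95 to 12.3 CPM in TM and from 9.92 to 16.3 CPM in HM, with 5 TM libraries below all of HM (-0.37, SE 0.115, adjusted p = 0.122).

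Beside these nuclear genes, the mitochondrially encoded share of counts went the other way across the cuts. The 13 protein-coding rows of the mitochondrial genome took 12.5% ± 1.96 (SD, n = 10) of counts in PB, 9.12% ± 1.53 in HM, 7.53% ± 1.80 in TM and 4.97% ± 0.827 in LDM. The lowest, median and highest libraries were at 3.63%, 5.20% and 6.05% in LDM, 5.37%, 7.54% and 11.5% in TM, 6.51%, 9.84% and 10.6% in HM, and 9.31%, 12.7% and 16.2% in PB. No PB or HM library reached down to an LDM library, whereas TM overlapped LDM, HM and PB. By a two-sided permutation test with 100000 resamples, adjusted over the 6 pairs, PB exceeded LDM by 7.52 percentage points (adjusted p = 4e-05) and HM exceeded LDM by 4.15 (adjusted p = 4e-05), both with the smallest p these resamples can give. PB exceeded TM by 4.96 points (permutation test, adjusted p = 4e-05, also the smallest) and HM by 3.37 (adjusted p = 0.00024), and TM exceeded LDM by 2.56 (adjusted p = 0.00024). Without PB1, PB exceeded LDM by 7.58, TM by 5.02 and HM by 3.43 points. TM and HM differed by -1.595 points (permutation test, adjusted p = 0.0481), a difference that did not pass without HM6, HM9, TM3 and TM7, without the libraries numbered 8, or when the 5 most abundant nuclear genes were left out of the total.

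Summed over the 67 genes, the TMM-scaled level was 1169 ± 103 CPM (SD, n = 10) in PB, 1226 ± 117 in HM, 1256 ± 135 in TM and 1407.5 ± 148 in LDM. Library values ran from 1150.5 to 1632 CPM in LDM, 1035 to 1409.6 in TM, 1052.5 to 1438.5 in HM and 1017 to 1327 in PB, so all cuts overlapped. In these means the order of the cuts was the reverse of that of the mitochondrially encoded share. As CPM of the whole library the means were 1396, 1363, 1249 and 1078 in LDM, TM, HM and PB, the same order. As CPM of the nuclear counts alone they were 1469.8, 1475, 1375 and 1234, with the TM mean above that of LDM by less than the spread between libraries. The lowest library of PB was PB8, which also had the highest leukocyte sum, and the highest of HM was HM9, which had the lowest slow-fibre and highest fast-fibre sum of that cut. Large-subunit names took 59.5% ± 1.47 (SD, n = 10) of the summed counts in PB, 59.7% ± 2.08 in HM, 59.9% ± 1.28 in TM and 61.1% ± 0.580 in LDM.

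**Figure D4:**
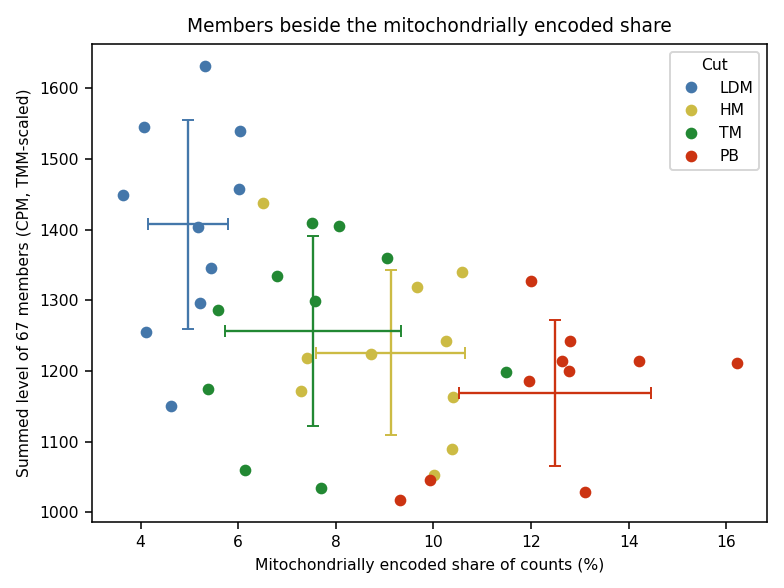
Each point is 1 library: mitochondrially encoded share of counts (x axis, %) against the summed level of the 67 genes (y axis, TMM-scaled CPM, not from 0), with the mean and SD of each cut as crosses. LDM lies at shares up to 6.05% and PB at 9.31% and above, while the summed levels of all 4 cuts overlap.

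Most single mitochondrial genes changed more than MRPS36 did: 10 of the 12 tested rows were at least 2-fold higher in PB than in LDM. In PB against LDM, 12 of the 12 tested rows were higher, with a median log2 change of 2.21, from 0.69 for COX1 to 3.36 for ND6. ND6 was wide in PB, from 179 to 2032 CPM, against 40.6 to 108 in LDM. Its row overlaps another on the opposite strand. The medians were 1.10 in HM (12 of 12 higher) and 0.65 in TM (11 of 12). Of all genes tested, 20.5% were higher in PB, 16.5% in HM and 11.3% in TM. ATP8, whose row overlaps ATP6, had 2 counts in total and was not tested. In PB against HM and TM, 10 and 11 of 12 were higher, with medians of 1.18 and 1.58.

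Other gene groups bore on how far the pattern was shared, as counts without a test of the difference between groups. Of the 54 tested cytosolic ribosomal proteins, 33 were lower and 2 higher in PB than in LDM (median -0.34), 21 and 1 in TM (median -0.20), and 27 and 3 in HM (median -0.25). The lower calls came to 61.1%, 38.9% and 50% of them in PB, TM and HM, beside 21.2%, 13.4% and 16% of all genes tested. Nuclear genes with NDUF names, mostly subunits of complex I that work beside mitochondrially encoded ones, had few lower calls. Of 29 tested, 2 were lower and 6 higher in PB (median 0.10), 0 and 2 in TM (median 0.17), and 0 and 8 in HM (median 0.22). The calls in PB include NDUFA4 (0.64, adjusted p = 1.82e-05), since assigned to complex IV. They also include NDUFA4L2 (-0.41, adjusted p = 0.0427), which is not an established subunit of complex I. The higher calls came to 20.7% of the NDUF genes in PB, 6.9% in TM and 27.6% in HM, beside 20.5%, 11.3% and 16.5% of all genes tested, so in PB the share was that of the whole table. The lower calls came to 6.9%, 0% and 0%, beside 21.2%, 13.4% and 16%.

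**Figure D5:**
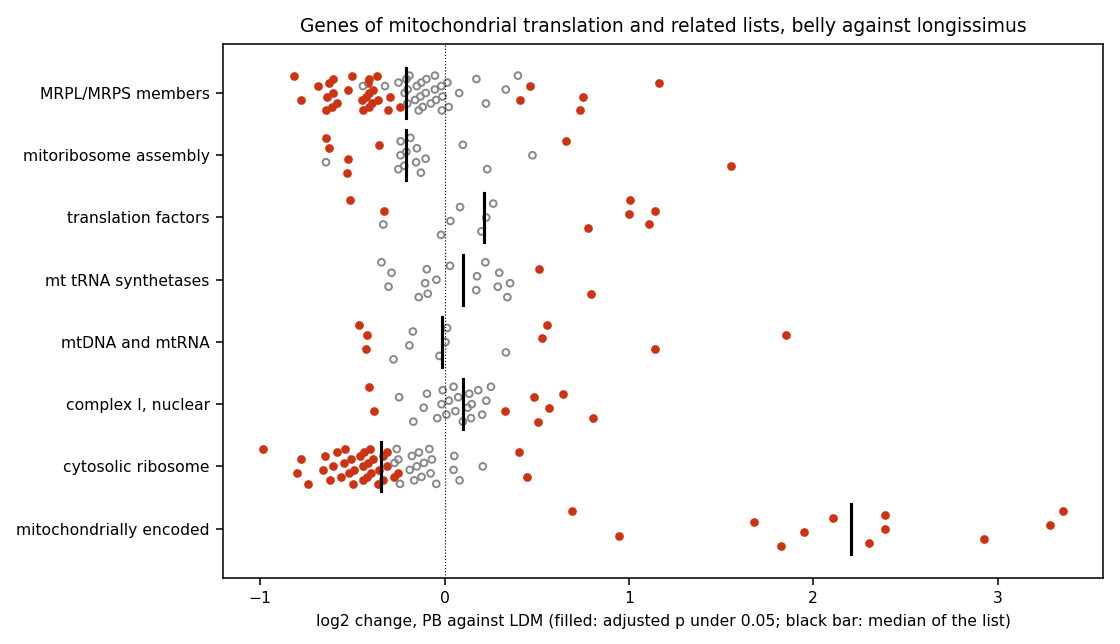
Log2 change in PB against LDM (x axis) of each tested gene in 8 groups; filled points have an adjusted p under 0.05, black bars are medians, and vertical position within a group has no meaning. The medians are -0.21 for the MRPL and MRPS genes, -0.34 for cytosolic ribosomal proteins, 0.10 for the NDUF genes (labelled complex I) and 2.21 for the mitochondrially encoded genes.

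Some mitoribosomal proteins go by other names. Of 4 tested, AURKAIP1 and CHCHD1, both of the small subunit, were lower than LDM in all 3 cuts, and the other 2 did not pass. The lower share was 50% in each cut, beside 21.2% of all genes tested in PB, 13.4% in TM and 16% in HM. CHCHD1 ran from 4.47 through 5.25 to 7.36 CPM in LDM and from 1.65 through 2.65 to 3.71 CPM in PB, with no overlap (-0.99, SE 0.192, adjusted p = 9.31e-05). In HM it changed by -1.05 (adjusted p = 8.49e-05) and in TM by -0.70 (adjusted p = 0.00576). AURKAIP1 changed by -0.53 in PB (adjusted p = 2.28e-05), -0.55 in HM (adjusted p = 3.57e-05) and -0.35 in TM (adjusted p = 0.00503), and its span overlaps another gene on the same strand.

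Of 21 tested assembly factors, 2 were higher and 5 lower in PB than in LDM (median -0.21). In TM 0 were higher and 2 lower (median 0.02), and in HM 0 and 4 (median 0.01). The lower calls were 23.8%, 9.5% and 19.0% of these factors in PB, TM and HM, near the 21.2%, 13.4% and 16% of all genes tested. The higher calls were 9.5%, 0% and 0%, beside 20.5%, 11.3% and 16.5%. METTL15, which methylates the small-subunit ribosomal RNA, had medians of 0.726 CPM in LDM and 2.46 CPM in PB (1.56, SE 0.322, adjusted p = 0.000202), a low level at which counting error is large. MPV17L2, an assembly factor of the inner membrane, was lower in PB (-0.53, adjusted p = 0.0139), TM (-0.58, adjusted p = 0.0125) and HM (-0.60, adjusted p = 0.00758), and its PB call was lost with the length correction (adjusted p = 0.0515). The helicase DHX30 was lower in PB than in LDM (-0.35, adjusted p = 0.0034) and HM (-0.44, adjusted p = 0.000735).

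The factors that run mitochondrial translation gave more higher than lower calls. Of 14 tested, 5 were higher and 2 lower in PB than in LDM (median 0.21), 3 and 0 in TM (median 0.19), and 4 and 1 in HM (median 0.21). The higher calls were 35.7%, 21.4% and 28.6% in PB, TM and HM, beside 20.5%, 11.3% and 16.5% of all genes tested. The lower calls were 14.3%, 0% and 7.1%, beside 21.2%, 13.4% and 16%. With so few genes, the difference from these shares was not tested. GFM2, which splits spent ribosomes, ran from 2.43 through 4.802 to 5.87 CPM in LDM and from 7.61 through 10.5 to 12.3 CPM in PB, with no overlap (1.14, SE 0.151, adjusted p = 2.64e-07). LRPPRC, which stabilises mitochondrial messenger RNAs, ran from 28.2 through 74.2 to 111 CPM in LDM and from 121 through 150 to 215 CPM in PB, again with no overlap (1.001, SE 0.169, adjusted p = 1.24e-05). GUF1, an elongation factor, rose by 1.11 in PB (SE 0.171, adjusted p = 3.14e-06). The elongation factor TUFM was higher in TM (0.41, adjusted p = 0.00533) and HM (0.44, adjusted p = 0.00251), and in PB it had a log2 change of 0.20 (adjusted p = 0.143).

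Among the mitochondrial transfer RNA synthetases and their amidotransferase, 2 of 18 were higher and 0 lower in PB than in LDM (median 0.10). In TM 2 were higher and in HM 1, with 0 lower in both. Over all genes tested, 20.5%, 11.3% and 16.5% were higher in PB, TM and HM, and 21.2%, 13.4% and 16% lower. The higher calls were thus no larger a share of these 18 genes than of the whole table in any of the 3 cuts. Lower calls were absent here, and the difference from these shares was not tested. YARS2, for tyrosine, was higher in PB than in LDM (0.79, adjusted p = 0.00172), HM (0.95, adjusted p = 0.000542) and TM (0.80, adjusted p = 0.00347). PARS2, for proline, was higher than LDM in TM (0.67, adjusted p = 0.00433) and HM (0.54, adjusted p = 0.0175). EARS2, for glutamate, was lower in PB than in HM (-0.65, adjusted p = 0.00199) and TM (-0.59, adjusted p = 0.00553).

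In the group for mitochondrial DNA upkeep, transcription and RNA processing, 4 of 14 were higher and 3 lower in PB than in LDM (median -0.01), 0 and 2 in TM, and 1 and 2 in HM. The higher calls were 28.6%, 0% and 7.1% in PB, TM and HM, beside 20.5%, 11.3% and 16.5% of all genes tested. The lower calls were 21.4%, 14.3% and 14.3%, near the 21.2%, 13.4% and 16% of all genes tested. PNPT1, which degrades mitochondrial RNA, ran from 1.71 through 4.40 to 6.77 CPM in LDM and from 11.4 through 14.7 to 22.5 CPM in PB. Its PB libraries lay above every library of the other 3 cuts, and the change against LDM was 1.85 (SE 0.203, adjusted p = 6e-09). MTERF1, which binds a terminator in mitochondrial DNA, rose by 1.14 (SE 0.256, adjusted p = 0.000494). TFAM, which packs mitochondrial DNA and helps start its transcription, rose by 0.56 (SE 0.191, adjusted p = 0.0183). ELAC2, which trims transfer RNA ends, was lower than LDM in PB (-0.42, adjusted p = 0.00182), TM (-0.43, adjusted p = 0.00275) and HM (-0.51, adjusted p = 0.000427).

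Nuclear regulators of mitochondrial genes showed no common direction, with 1 of 8 higher and 1 lower than LDM in each of the 3 cuts. Each call is 12.5% of the list. Of all genes tested, 20.5%, 11.3% and 16.5% were higher in PB, TM and HM, and 21.2%, 13.4% and 16% lower. YY1, a zinc-finger transcription factor, was the lower one in each cut, with -0.41 in PB (adjusted p = 0.000812), -0.42 in TM (adjusted p = 0.00161) and -0.43 in HM (adjusted p = 0.000954). GABPA, the ETS factor also called NRF2 alpha, was the higher one in PB (0.57, SE 0.191, adjusted p = 0.0147), a call lost with the length correction. The orphan receptor ESRRA was the higher one in TM (1.52, SE 0.264, adjusted p = 6.12e-05) and HM (0.72, SE 0.261, adjusted p = 0.0321). The span of ESRRA overlaps 2 other genes on the same strand, so its counts are uncertain. The HM call of ESRRA was lost under 4 of the 14 alternatives: with the replicate block, without the libraries numbered 8, and with the length correction alone or with the block (adjusted p from 0.00795 to 0.0896 over the 14). NRF1 was lower in PB than in HM (-0.48, adjusted p = 0.0117). The coactivator PPARGC1A did not pass in any pair, and its libraries ran from 12.3 to 258 CPM in LDM, 21.7 to 406 in HM, 29.4 to 708 in TM and 25.9 to 518 in PB.

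A further 10 genes carry no MRPL or MRPS symbol in the table but are described there as mitochondrial ribosomal proteins, a set seen only after the table was opened and kept out of all counts above. Of the 9 tested, 3 were higher and 3 lower in PB than in LDM (33.3% each, beside 20.5% and 21.2% of all genes tested). MRPS6, taken by its description, ran from 2.74 through 4.53 to 8.41 CPM in LDM and from 6.87 through 11.6 to 17.2 CPM in PB, with 8 PB libraries above all of LDM. It rose by 1.35 in PB (SE 0.284, adjusted p = 0.000249), 1.42 in TM (SE 0.284, adjusted p = 0.000313) and 1.52 in HM (SE 0.285, adjusted p = 0.00011). Its span overlaps another gene on the same strand.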

How the data were processed

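RNA from 40 libraries (4 cuts, 10 each) was analysed from the authors' deposited table, which gives whole-number read counts and FPKM per gene, per the file headers. Per the submitters' processing notes, the tools were HTSeq 0.9.1, HISAT2 2.0.5 and cutadapt 1.15, with build Sscrofa11.1. Their roles, the strand setting and the handling of overlapping genes are not given in the sources used here. The deposited FPKM equal count over gene length and library total for 100% of values (tolerance 0.001), so tests used the counts. The kit was stranded, per the labels' protocols. There were 0 columns without a sample.

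Libraries were grouped by title. Genes were filtered with filterByExpr by cut (11713 left), scaled by TMM and tested with edgeR 4.0.16 in R 4.3.3 (robust quasi-likelihood fit of all 40 libraries, cut as the only factor), for the 6 pairs and among the 4 cuts, with Benjamini-Hochberg adjustment and a threshold of 0.05. The script was tested on simulated data for PB against LDM, with 50 genes changed at each fold. It recovered 8% of them at 1.25-fold, 34% at 1.5-fold, 68% at 2-fold and 96% at 4-fold, with 3 false calls. Far fewer genes were changed there than were called here, so recovery may differ. A gene that did not pass may still differ by a small fold. CPM are TMM-scaled, and log2 changes carry the SE of the fit. Depth was 12305913 to 17735722 counts, so 1 count is at most 0.0813 CPM. The mitochondrial share was compared by permutation (scipy 1.17.1, 100000 resamples). No libraries of a cut were near-identical (lowest chi-square per gene 29.8).

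The members and gene lists were chosen with earlier results of these data known. Named genes were, per pair, the 6 with the smallest adjusted p and the 3 highest and 3 lowest passing members. To these were added the 8 smallest p among the cuts, the 5 highest and 5 lowest by FPKM, those removed by the filter, up to 3 per list by smallest p, and PPARGC1A, TFAM, NRF1, TUFM and DAP3. Alternatives were DESeq2 size factors, upper-quartile scaling, the DESeq2 1.42.0 test, voom of limma 3.58.1 with quality weights, no filter, a filter of 1 CPM in 10 libraries, each pair alone, the library number as a block, scaling without the mitochondrially encoded genes, libraries left out, and a gene length correction (spline with 4 degrees of freedom) without and with the block. Sequences, promoter motifs and GC content were not analysed here.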

Additional observations from a re-analysis of the deposited data

Results flagged for a closer look

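In 19 of 192 gene-and-cut groups of 10 libraries, the highest or lowest library stood apart from the rest by Dixon's criterion (a gap of over 0.466 of the whole range). Chance alone gives about 5% for independent values with a normal distribution. These CPM were not log-transformed and the groups share libraries, so the chance rate here is not known. The values are TMM-scaled CPM.

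Among the ribosomal protein genes, HM9 was the highest HM library for MRPL18 (30.03, the others 13.2 to 21.8) and MRPL58 (29.3, the others 19.2 to 24.5). TM10 was the highest TM library for MRPL4 (28.1), MRPS5 (47.1) and MRPS9 (66.6), where the others reached 22.01, 34.6 and 53.4. MRPS5 was also high in PB10 (38.9, the others up to 31.1) and MRPS9 in HM8 (57.1, the others up to 46.2). MRPL51 was low in PB8 (18.7, the others from 26.8) and MRPL52 in TM3 (2.86, the others from 4.72).

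Among the other named genes, CHCHD1 was high in HM9 (4.64) and TM7 (7.31), YARS2 in HM9 (6.65), METTL15 in HM1 (2.75), EARS2 in PB9 (17.3) and LRPPRC in PB5 (215). NRF1 was high in HM5 (20.2) and PB8 (16.3). PPARGC1A was high in TM2 (708, the others up to 384) and PB5 (518, the others up to 120.4). TM10 had the highest slow-fibre sum of TM, and HM9 and TM7 had the highest fast-fibre sums of their cuts. The part of this in the values was not tested.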

How the results depend on the processing

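For the named ribosomal protein genes, 771 of 854 values under the 14 alternatives kept their direction and side of the threshold, 79 kept the direction but no longer passed and 4 reversed. For the named genes of the other lists these were 787, 10 and 1 of 798. The 4 and the 1 were genes that did not pass: the log2 change of MRPL51 PB vs LDM was 0.026 without the libraries numbered 8, 0.024 with the mitochondrially encoded genes taken out, 0.11 with the length correction and 0.11 with the length correction and block, and the log2 change of PPARGC1A PB vs LDM was 0.0092 with the mitochondrially encoded genes taken out. All 84 recomputed medians stayed within the spread between libraries, an SD of 0.16 on the log2 scale. That spread is larger than every median itself except that of PB against LDM (-0.21). For the other pairs the check could hardly fail, so it does not show that their medians held. Of 97 recomputed counts of called members 7 moved by over 1.5 times: PB against HM from 8 to 5 (mitochondrially encoded genes taken out) and 3 (length correction), PB against TM from 4 to 8 (upper-quartile), 9 (block), 2 (without the libraries numbered 8) and 2 (length correction), and TM against HM from 0 to 1 (voom). The share of higher calls among all calls moved from 16.1% to 27.6% (mitochondrially encoded genes taken out) and 26.9% (without the libraries numbered 8) in PB against LDM, from 16.7% to 38.5% in TM against LDM (upper-quartile), and from 50% to between 33.3% (upper-quartile) and 100% (mitochondrially encoded genes taken out, length correction, without the libraries numbered 8) in PB against HM. In PB against TM, with 2 to 9 calls, it moved both ways, from 25.0% down to 12.5% (upper-quartile) and up to 40% (voom), 50% (pair alone, without the libraries numbered 8, length correction) and 60% (length correction with block). In HM against LDM it stayed between 5% and 18.2%, from 10% (block for the highest, without the libraries numbered 8 for the lowest). The mitochondrially encoded share TM vs HM no longer passed, at -1.84 points without HM6, HM9, TM3 and TM7 (permutation test, adjusted p = 0.0545), -1.38 without the libraries numbered 8 (adjusted p = 0.109) and -1.82 without the 5 most abundant nuclear genes (adjusted p = 0.0557). The cause of these shifts was not tested.

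The replicate block took the library number as the block. The labels do not say that a number marks a pig, and same-numbered libraries of different cuts deviated together with a correlation over 0.1 in 52 of 60 pairs (-0.128 to 0.51, median 0.245), with 31 of 60 highest for their own number. Among 10 candidates, 1 in 10 would be highest for its own number by chance. What libraries of a number share was not tested, and the main tests left the number out. With the block, 36 members differed among the cuts, and the calls were 35 (PB against LDM), 21 (TM against LDM), 22 (HM against LDM), 10 (PB against HM), 9 (PB against TM) and 0 (TM against HM). At this depth, genes near 1 CPM, such as MRPS18C, rest on 6 to 39 counts per library.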

Other observations

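MRPL37 and MRPL20, named here after their values were seen, were also lower than LDM in each of the 3 cuts. MRPL37, a mitochondria-specific large-subunit protein, ran from 67.04 through 79.4 to 129 CPM in LDM and from 44.5 through 58.0 to 72.0 CPM in HM, where 8 libraries lay below all of LDM. Its log2 change was -0.56 in HM, -0.35 in TM and -0.29 in PB. MRPL20, a bacterial-type large-subunit protein, changed by -0.28, -0.32 and -0.39 in the same order.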
